A study of Homo sapiens with 18 samples.

Results

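LINC genes are intergenic noncoding RNA genes that carry a systematic symbol, the letters LINC and a number. The genes described here were chosen by that symbol and by RNA level: 370 of the 23604 genes listed in the RNA-Seq tables had a symbol of this form and a mean of at least 0.5 FPKM (fragments scaled to transcript length and library size) over 8 libraries, out of 805 LINC rows in all. The cells were MCF10A-ErSrc, a non-transformed human mammary epithelial line that carries a fusion of v-Src with the ligand-binding part of the estrogen receptor, so that tamoxifen switches the Src kinase on and the cells transform. Untransformed (NT) and tamoxifen-treated (TAM) cells received DMSO or a nanomolar dose of triptolide (TPL) for 4 h, which gave 4 groups named NT, NT + TPL, TAM and TAM + TPL, each with 2 RNA-Seq libraries and 1 list of RNA polymerase II (RNAPII) ChIP-Seq peaks. All groups were of this 1 line and all carried the fusion.

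Long intergenic noncoding RNAs are usually transcribed by RNAPII, capped, spliced and polyadenylated, as mRNAs are, but encode no known protein. As a class they are expressed at low levels and in few cell types, and for most LINC genes no function is known. Triptolide binds XPB, the helicase of the general transcription factor TFIIH that opens promoter DNA, and thereby blocks initiation by RNAPII. Every RNA value below is a share of its library, with no spike-in stated: a rise is a rise relative to the other RNAs and not in molecules per cell, and fewer cells of a type and less RNA per cell cannot be told apart in bulk RNA.

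The start regions of 4 LINC genes are printed because each belongs to a result given further on: the member with a large rise under TPL and a listed peak in every condition (LINC01004), the members with a peak in a TPL list and not in the DMSO list of the same cells (LINC00205, LINC00674), and a member that shares its start region with a gene moving the other way (LINC01521, picked after its values were seen). Each run covers 300 bases, from 250 before the annotated start, on the gene's own strand of GRCh37 (hg19): chr7:104653442-104653741 minus strand, chr21:46707702-46708001 plus strand, chr17:66097799-66098098 plus strand and chr22:31742513-31742812 plus strand, in that order. Capitals mark the TATA box letters TATAAA, the CCAAT box, the GC box letters GGGCGG, the AP-1 type of motif TGANTCA and the E box letters CACGTG, each searched on both strands, so that CCGCCC stands for the GC box on the other strand and overlapping or adjoining matches run together.
LINC01004: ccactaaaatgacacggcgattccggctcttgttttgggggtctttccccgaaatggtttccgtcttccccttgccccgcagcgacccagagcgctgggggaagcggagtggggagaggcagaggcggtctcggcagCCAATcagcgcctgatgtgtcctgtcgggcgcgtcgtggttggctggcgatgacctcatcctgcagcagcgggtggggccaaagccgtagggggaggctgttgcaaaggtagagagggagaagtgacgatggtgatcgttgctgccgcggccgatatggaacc
LINC00205: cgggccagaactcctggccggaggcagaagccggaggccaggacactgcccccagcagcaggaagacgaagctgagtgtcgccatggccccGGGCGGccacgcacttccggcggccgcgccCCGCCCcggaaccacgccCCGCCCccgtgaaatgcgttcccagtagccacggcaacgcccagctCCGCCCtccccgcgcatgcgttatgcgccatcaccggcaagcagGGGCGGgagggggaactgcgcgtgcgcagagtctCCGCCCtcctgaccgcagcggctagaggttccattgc
LINC00674: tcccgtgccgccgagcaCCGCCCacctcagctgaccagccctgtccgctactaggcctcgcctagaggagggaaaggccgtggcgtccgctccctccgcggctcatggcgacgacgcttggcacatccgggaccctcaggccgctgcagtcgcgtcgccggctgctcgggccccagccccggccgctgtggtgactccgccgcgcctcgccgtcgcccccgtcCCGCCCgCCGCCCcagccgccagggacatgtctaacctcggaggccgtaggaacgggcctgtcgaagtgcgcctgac
LINC01521: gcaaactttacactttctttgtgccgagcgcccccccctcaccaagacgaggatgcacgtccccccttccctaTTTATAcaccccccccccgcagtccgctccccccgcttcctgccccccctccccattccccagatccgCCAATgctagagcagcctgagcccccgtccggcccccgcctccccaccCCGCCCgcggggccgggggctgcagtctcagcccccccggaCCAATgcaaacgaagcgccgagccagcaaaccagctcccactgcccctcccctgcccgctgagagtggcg

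The 4 groups were sequenced to similar depth, from 7461309 to 8349448 expected counts per library, so that the median member rested on a mean of 31.5 counts. NT + TPL replicate 2 stood apart for these genes: LINC members took 0.946% of its counts, against 0.616% in NT + TPL replicate 1. Of 12 markers of mammary epithelium, 12 were listed, with mean levels from 10.8 to 3589 FPKM. Their summed level was 17560 to 19190 FPKM in NT, 10920 to 13980 in NT + TPL, 8091 to 8315 in TAM and 4319 to 4677 in TAM + TPL and so moved with both treatments. The sum was made mostly of 3 keratins, KRT5, KRT17 and KRT6A (means 2982, 3589 and 3133 FPKM), and not every marker went its way. For TAM against NT, KRT5 and KRT17 had log2 values of -2.18 and -2.16 with DMSO and -3.21 and -2.80 with TPL. KRT6A had 0.12 with DMSO and 0.29 with TPL, so it fell with TPL but not in TAM. LAMB3 had 0.69 with DMSO and 3.10 with TPL in the same comparison. With TPL in TAM, the values of ITGA6, CDH3 and CDH1 were positive, none at an adjusted p of 0.05. EPCAM, an epithelial adhesion molecule, had log2 values of 0.43 with TPL in NT, 0.47 with TPL in TAM and 0.69 in TAM with DMSO, and ITGB4, a hemidesmosome integrin, had 0.72 with TPL in NT. Of 14 markers of other cell types, 12 were listed and 6 of these had a mean under 1 FPKM. Their sum was 263.1 to 311.4 FPKM in NT, 168.4 to 236.4 in NT + TPL, 360.5 to 406.6 in TAM and 458.1 to 520.8 in TAM + TPL, made mostly of CD68 (lysosomal membrane protein, mean 215.3 FPKM) and ESR1 (estrogen receptor, 111.9 FPKM). All groups carried a fusion with part of the estrogen receptor, whose reads may count as ESR1, so ESR1 is no clear marker here. The part of either sum in the results below was not tested.

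Most members were scarce and a few were abundant. These levels chose the members and are given without a test. Mean FPKM ran from 0.511 to 184.8 with a median of 2.12 and quartiles of 1.03 and 4.496. 33 members reached 10 FPKM and 91 were under 1, while the 10 highest held 44.6% of the summed level. At the edge of the rule, LINC01726 (0.511), LINC00488 (0.515) and LINC00242 (0.529 FPKM) were just inside, and LINC01449 (0.488), LINC02613 (0.488) and LINC00622 (0.484 FPKM) just outside. LINC02613 and LINC00622 lay at 0.93 to 1.15 and 0.57 to 0.82 FPKM in NT + TPL with 0.00 and 0.08 in NT, so the minimum also left out genes that were seen mainly under TPL.

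The highest member was LINC00987, at 185.61 and 202.40 FPKM in NT cells and 191.34 and 214.05 with TPL, 177.60 and 185.41 in TAM cells and 154.99 and 167.12 with TPL. NT and NT + TPL overlapped, TAM + TPL lay below TAM, and no contrast passed an adjusted p of 0.05. LINC00504 was at 124.06 and 108.70 FPKM in NT cells and 181.22 and 354.67 with TPL, 100.82 and 105.09 in TAM cells and 227.85 and 219.56 with TPL, so that the TPL libraries lay above the DMSO libraries in both cell states. LINC00506, LINC02043, LINC01623, LINC02067 and LINC01873 followed, with means from 50.91 to 160.1 FPKM and with every TPL library above every DMSO library. LINC00707, LINC01503 and LINC00342 closed the first 10, with means from 28.43 to 36.81 FPKM.

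The sequence of the abundant members was often not their own. For each of the 338 members that could be placed on GRCh37, 24-base words spread over its transcript were looked up in the transcripts of all other genes. The median member had 4% of its words in 10 or more other genes, and 160 members (47.3%) had at least 5%, compared with 12% of protein-coding genes of at least 0.5 FPKM. Among the highest members, LINC00504 shared 39% of its words in this way, LINC02043 38%, LINC01873 30% and LINC00506 23%. LINC00987, LINC01623 and LINC02067 shared 0 to 1% with 10 or more genes, but LINC00987 had 13% of its words in PTMAP4, a prothymosin alpha pseudogene, and LINC01623 had 24% in RPL13P, a ribosomal protein pseudogene. For 19 members over 50% of the words lay in 1 other gene. Across the 338 members the shared percentage and the mean FPKM had a Spearman rho of 0.37, given as a description across genes, which are not independent. The levels of these members are uncertain, since the counting could divide reads among copies. The fold change with TPL was little related to the shared percentage, with rho of -0.05 in NT and -0.10 in TAM cells.

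**Figure D1:**
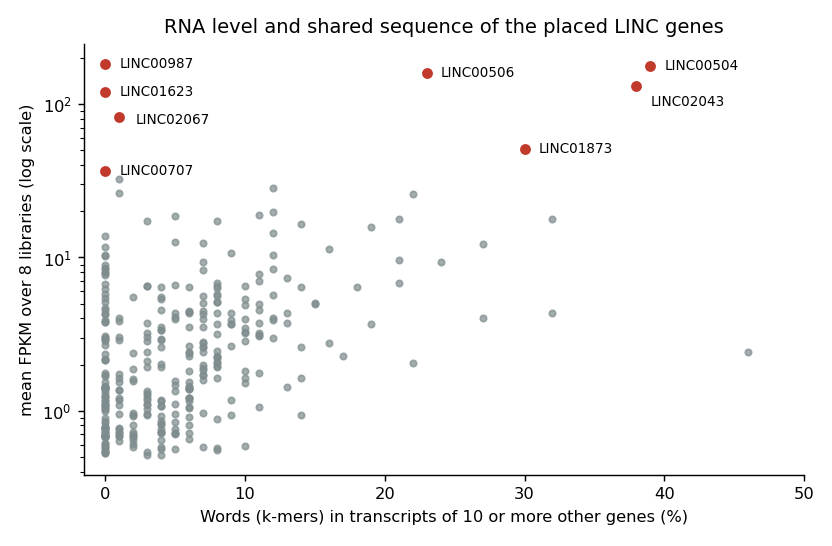
Mean FPKM over 8 libraries (vertical axis, log scale) against the percentage of a member's 24-base words found in transcripts of 10 or more other genes (horizontal axis), 1 point per placed LINC gene, with the 8 highest in red and named. LINC00504, LINC02043, LINC01873 and LINC00506 sit at 23 to 39% shared, while LINC00987 is highest at 0%.

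LINC genes as a group took a larger share of the library with TPL. Members held 0.475% and 0.433% of the counts in NT and 0.616% and 0.946% in NT + TPL, and in TAM cells 0.427% and 0.427% without and 0.743% and 0.702% with TPL. TPL libraries thus lay above DMSO libraries in both states. The same held without the 10 highest members, at 0.209 to 0.234% in NT, 0.303 to 0.399% in NT + TPL, 0.196 to 0.208% in TAM and 0.333 to 0.381% in TAM + TPL. The median member was at 1.68 and 1.46 FPKM in NT cells and 2.35 and 2.84 with TPL, 1.36 and 1.29 in TAM cells and 2.89 and 2.53 with TPL. The median level of protein-coding genes of at least 0.5 FPKM was lower with TPL. In NT cells it was 6.44 and 6.75 FPKM without and 5.91 and 5.40 with TPL. In TAM cells it was 6.52 and 6.43 without and 5.52 and 5.74 with TPL. Gene by gene, the tested protein-coding genes split about evenly, with a positive log2 fold change in 49.6% in NT and 47.9% in TAM.

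Of the 370 members, 329 passed the filter on low counts and entered a quasi-likelihood test in edgeR, adjusted over 16948 genes by the Benjamini-Hochberg method. 55 of these 329 were above the filter's level in fewer than 2 DMSO libraries, and only 3 in fewer than 2 TPL libraries, so the filter let in genes seen mainly with TPL. In NT cells, 80 members rose at an adjusted p of at most 0.05, or 24.3% of those tested, and 5 fell, where 17.2% of all tested genes rose and 19.8% fell. In TAM cells, 87 rose (26.4%) and 4 fell, where 14.3% of all tested genes rose and 18.6% fell. Under a stricter rule, an adjusted p of at most 0.001 and an absolute log2 fold change of at least 1.2, 2 members rose and 0 fell in each state, where 1.22% of tested genes rose and 2.71% fell in NT and 0.844% and 2.04% in TAM. At an unadjusted p under 0.05, 7 members (2.13%) fell in NT and 6 (1.82%) in TAM, where 24.1% and 24.0% of all tested genes did. DESeq2 placed 3 and 1 members past the strict rule as lower, of 1586 and 1397 genes in all.

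The median fitted log2 fold change of tested members was 0.84 (quartiles 0.36 and 1.34) in NT and 0.95 (0.55 and 1.47) in TAM, where all tested genes had medians of 0.09 and 0.05 and protein-coding genes 0.00 and -0.05. Both TPL libraries lay above both DMSO libraries for 193 members in NT (58.7%, against 36.4% of all tested genes) and for 258 in TAM (78.4%, against 40.0%). They lay below for 18 and 16 members, where 32.7% and 34.7% of all tested genes did. Other long noncoding RNA genes had medians of 0.64 and 0.71, with 225 of 1072 past an adjusted p of 0.05 upward in NT and 228 in TAM, so that the upward shift was seen in them too. Among 115 tested genes that once had a LINC number and now have another symbol, the medians were 0.61 and 0.57, with 27 rising and 8 falling in NT and 24 rising and 6 falling in TAM. A list of 32 well-known long noncoding RNAs such as MALAT1, GAS5 and the SNHG snoRNA host genes had medians of 0.26 and 0.32, with 12 rising and 4 falling in NT and 4 rising and 3 falling in TAM. No test of the difference between these groups of genes was made.

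**Figure D2:**
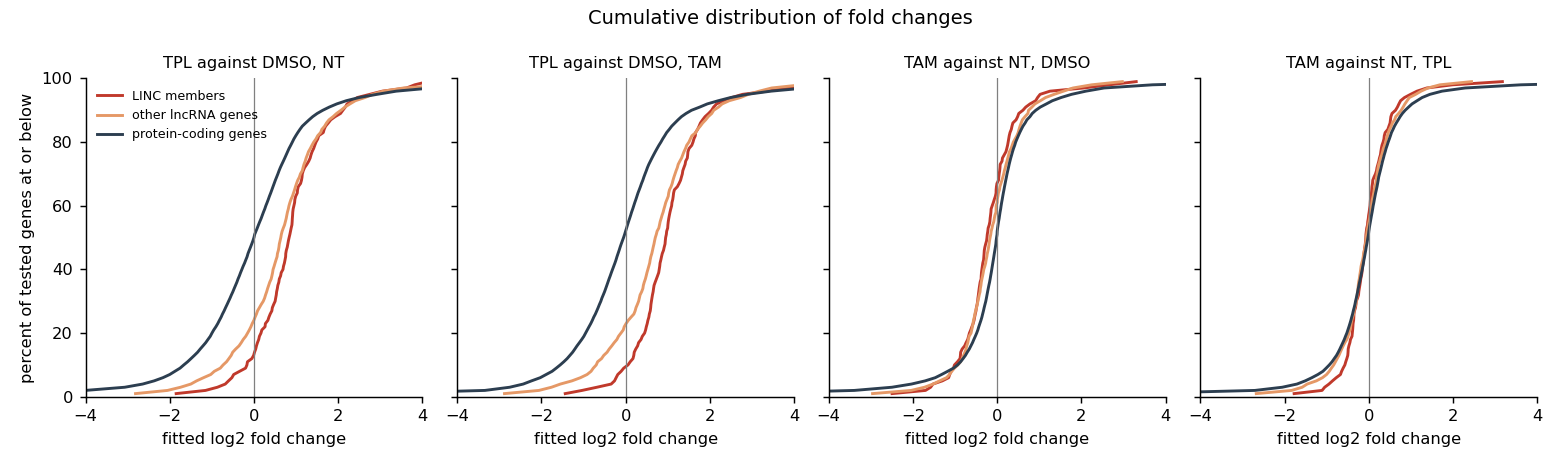
Percentage of tested genes (vertical axis) at or below each fitted log2 fold change (horizontal axis) for LINC members, other long noncoding RNA genes and protein-coding genes, in the 4 contrasts. At the median the LINC curve lies to the right of the protein-coding curve with TPL, at 0.84 in NT and 0.95 in TAM. Between TAM and NT its median lies slightly to the left, at -0.24 with DMSO and -0.07 with TPL. The LINC and protein-coding curves cross in every contrast.

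The number of calls depended on which libraries were fitted, among members and among all genes. Leaving out 1 library changed the number of members that rose in NT from 80 to 30 (without NT replicate 1), 19 (without NT replicate 2) or 39 (without NT + TPL replicate 2), and to 99 without NT + TPL replicate 1. In the same 4 fits the number of all genes that rose in NT went from 2919 to 1648, 1278, 2124 and 2982. In TAM, the members went from 87 to 24 or 22 (without TAM replicate 1 or 2), 15 or 38 (without TAM + TPL replicate 1 or 2) and 118 or 116 (without NT + TPL replicate 1 or 2), and all genes from 2431 to 1120, 1035, 910, 1173, 2990 and 2976. The median log2 fold change was at 0.49 to 1.06 in these fits for NT cells and at 0.83 to 1.07 for TAM cells, the 0.49 being that without NT + TPL replicate 2. NT and TAM share no library in these contrasts but share 1 estimate of the spread from the same fit, so their calls are not independent. In both states 50 members rose, which was 62.5% of those that rose in NT and 57.5% of those that rose in TAM. Of all tested genes, 1671 rose in both, or 57.2% of those that rose in NT and 68.7% of those in TAM. 3 members fell in both and 0 moved in opposite directions past the threshold, against 2401 and 25 of all tested genes. All 4 TPL libraries were above all 4 DMSO libraries for 156 tested members (47.4%), against 21.1% of all tested genes. Of 63 calls at an adjusted p of 0.05 for the named members, over the TPL and the state contrasts, 46 were lost when 1 library was left out and 17 were kept in every such fit. The kept calls were those of LINC01004 and LINC00174 with TPL in both states, of LINC00205, LINC00899, LINC01123, LINC01503, LINC01569, LINC02381 and LINC02693 with TPL in NT, of LINC00381, LINC00628 and LINC00663 with TPL in TAM, of LINC00520 between states under both treatments, and of LINC01844 between states with TPL. Those of LINC00899, LINC00381, LINC00628 and LINC01844 are of genes at 3 counts or fewer in each library of the lower group, which entered the test through the other libraries.

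LINC01004 had the smallest adjusted p of all tested members with TPL in both states. It was at 0.73 and 0.58 FPKM in NT and 6.28 and 9.85 in NT + TPL, and at 0.61 and 0.52 in TAM cells and 8.91 and 6.70 with TPL. The groups did not overlap, and TPL libraries were higher in 4 of 4. The log2 fold change was 3.62 (SE 0.315, adjusted p = 0.000511) in NT and 3.76 (SE 0.319, adjusted p = 0.000527) in TAM cells. LINC01004 (Entrez 100216546) has 3 exons at chr7:104590762-104653515 on the minus strand and starts 1161 bases from the start of KMT2E, the gene of a SET-domain protein linked to histone H3 lysine 4 methylation, which it overlaps without shared exons. An RNAPII peak covered its start in all 4 lists, at chr7:104651839-104654808 in NT, chr7:104652326-104655843 in NT + TPL, chr7:104652640-104654844 in TAM and chr7:104652414-104655168 in TAM + TPL. With KMT2E starting 1161 bases away, peaks this wide may cover both starts and cannot be assigned to LINC01004 alone. The start region printed above had a CCAAT at -113, counted from 0 at the start, and 24 CpG.

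LINC00174 was the other member past the strict rule. Its values were 1.04 and 1.35 FPKM in NT cells and 7.51 and 6.93 with TPL, 1.58 and 1.23 in TAM cells and 9.22 and 7.15 with TPL, again without overlap. The log2 fold change was 2.58 (SE 0.239, adjusted p = 0.000593) in NT and 2.49 (SE 0.236, adjusted p = 0.000711) in TAM. It has 23 exons at chr7:65841031-65958553 on the minus strand, overlaps TPST1 (a tyrosylprotein sulfotransferase), had no listed peak over its start, and had 37% of its words in other genes.

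Among the members with the largest fitted rises, several were at or near 0 with DMSO, and their folds are lower bounds set at 3 counts per library. LINC03016 went from 0.00 and 0.00 FPKM in NT to 1.41 and 1.79 in NT + TPL, at least 3.20-fold higher, and from 0.16 and 0.16 in TAM to 2.89 and 1.82 in TAM + TPL, at least 4.86-fold higher. LINC00628 went from 0.00 and 0.19 to 2.34 and 1.55 FPKM in NT and from 0.00 and 0.00 to 4.60 and 2.40 in TAM, at least 6.74-fold and 12.5-fold higher. LINC00899 went from 0.15 and 0.08 to 2.25 and 1.87 FPKM in NT and from 0.22 and 0.22 to 3.38 and 1.59 in TAM, at least 9.06-fold and 11.2-fold higher. In each of these the TPL libraries were higher in 4 of 4, and LINC00899 had a peak over its start in the NT and TAM lists and in neither TPL list.

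LINC01933 was at least 4.45-fold higher in NT + TPL (3.42 and 5.19 FPKM, from 0.32 and 0.00) and at least 6.55-fold higher in TAM + TPL (9.11 and 3.12, from 0.00 and 0.31). LINC00242, just inside the FPKM minimum, was at least 5.50-fold higher in NT + TPL (1.02 and 0.65 FPKM, from 0.00 and 0.10) and at least 8.18-fold higher in TAM + TPL (1.15 and 1.26, from 0.00 and 0.05). These bounds belong to genes that entered the test through their TPL libraries. In TAM cells LINC00381 was at least 6.94-fold higher with TPL, at 3.39 and 3.57 FPKM from 0.03 and 0.00, and LINC00525 at least 4.30-fold higher, at 1.46 and 1.13 FPKM from 0.00 and 0.00. They are given as values without a test for that reason. LINC02910 gets no fold in NT because all 4 NT and NT + TPL libraries were at 3 counts or fewer, although it was counted among the members that rose there. 19 tested members in NT and 16 in TAM were at such a bound, and with their bounds in place of the fitted values the medians were 0.83 and 0.95. Of the members that rose at an adjusted p of at most 0.05, 9 in NT and 10 in TAM were at such a bound.

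The members that fell with TPL were few. LINC01123 was at 8.71 and 11.94 FPKM in NT cells and 2.64 and 1.99 with TPL, 6.36 and 7.56 in TAM cells and 3.82 and 3.17 with TPL, with all TPL libraries below all DMSO libraries. In NT cells its log2 change was -2.15 (SE 0.247, adjusted p = 0.00117), in TAM cells -1.02 (SE 0.239, adjusted p = 0.0182). A peak covered its start in the NT and TAM lists and in neither TPL list. 79% of its words lay in LINC01106, so its level is uncertain.

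LINC02381, which lies within SMUG1 (a uracil-DNA glycosylase gene), was at 9.24 and 8.19 FPKM in NT cells and 2.88 and 1.51 with TPL, 7.76 and 8.30 in TAM cells and 2.86 and 2.53 with TPL. In NT cells the log2 fold change was -2.0 (SE 0.347, adjusted p = 0.00548), while TAM cells had -1.62 (SE 0.341, adjusted p = 0.0124), and a peak covered its start in the NT list alone. LINC02693 also fell in both states, from 1.14 and 1.57 to 0.36 and 0.28 FPKM in NT and from 3.19 and 2.14 to 1.25 and 1.19 in TAM, with log2 fold changes of -2.09 (adjusted p = 0.00324) and -1.17 (adjusted p = 0.0219). In TAM, the calls of LINC01123, LINC02381 and LINC02693 were lost without either TAM + TPL replicate, with adjusted p from 0.0637 to 0.107. They were also lost without TAM replicate 1 for LINC02381 (0.0506) and LINC02693 (0.133), and without TAM replicate 2 for LINC01123 (0.0943) and LINC02381 (0.0617).

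LINC00707 shares exons on the same strand with other genes, the nearest of which starts 38 bases away. With 28% of its words in other genes, its level is uncertain. LINC00707 was at 61.88 and 70.28 FPKM in NT cells and 18.22 and 3.78 with TPL, 46.95 and 46.64 in TAM cells and 24.48 and 22.23 with TPL. It lay lower with TPL in all 4 libraries and passed the test in NT, with a log2 change of -2.62 (SE 0.577, adjusted p = 0.0134), but not in TAM, with -1.05 (SE 0.546, adjusted p = 0.177). The NT call was lost without NT replicate 2 (adjusted p = 0.0541). LINC00997 fell in NT, from 5.18 and 5.32 to 3.81 and 3.05 FPKM (log2 fold change -0.63, adjusted p = 0.0248). LINC00842 fell in TAM, from 1.38 and 1.74 to 0.45 and 0.25 FPKM (log2 fold change -2.15, adjusted p = 0.0175). LINC00842 shares exons on the same strand with ANXA8L1, an annexin gene, so its reads may belong to either.

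**Figure D3:**
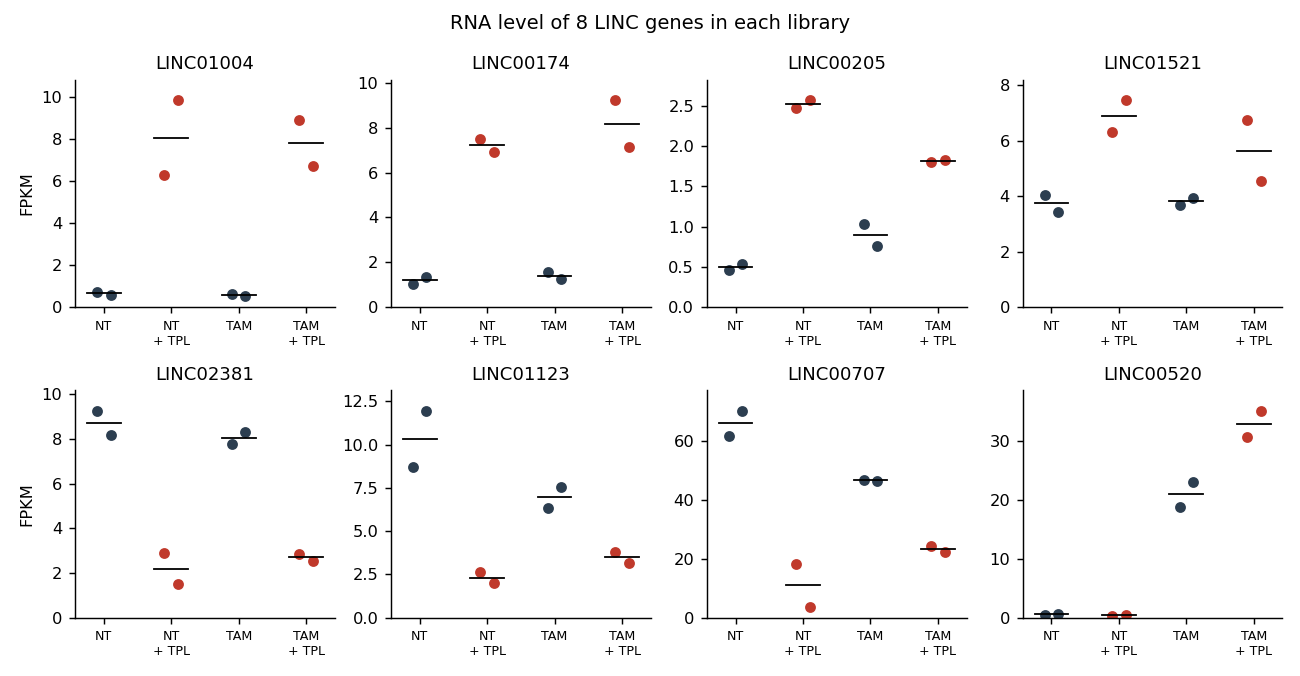
FPKM (vertical axis, from 0, with a scale of its own in each panel) in each library of the 4 groups for 8 LINC genes; points are libraries and lines are means of 2. LINC01004 rises from at most 0.73 with DMSO to at least 6.28 with TPL, LINC02381, LINC01123 and LINC00707 lie lower with TPL, and LINC00520 is above 18 in TAM libraries alone.

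Between TAM and NT cells, few members differed. With DMSO, 4 were higher and 1 was lower in TAM at an adjusted p of 0.05, where 3.46% of all tested genes were higher and 3.39% lower, and with TPL 5 were higher and 2 lower, where 2.83% and 4.21% were. These counts include LINC01844 and LINC02910, higher under both treatments, and LINC00381, lower with DMSO. All 3 were at 3 counts or fewer in each library of the lower group and entered the test through other libraries. The strict rule called 1 member as higher and 0 as lower in each, where it called 0.378% of tested genes higher and 0.277% lower with DMSO and 0.360% and 0.236% with TPL. Both TAM libraries lay above both NT libraries for 45 members and below for 112 with DMSO (24.0% and 28.7% of all tested genes), and for 52 and 46 with TPL (23.8% and 23.8%). The median log2 difference was -0.24 with DMSO and -0.07 with TPL, where all tested genes had -0.03 and -0.02.

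The member past the strict rule was LINC00520, known from earlier work as a noncoding RNA that Src and STAT3 induce in mammary cells. It was at 0.49 and 0.67 FPKM in NT cells and 0.32 and 0.46 with TPL, 18.83 and 23.13 in TAM cells and 30.73 and 35.14 with TPL. TAM cells exceeded NT cells in all libraries, with a log2 difference of 5.19 (SE 0.262, adjusted p = 0.000128) with DMSO and 6.36 (SE 0.280, adjusted p = 8.48e-05) with TPL. TPL itself gave log2 fold changes of -0.57 (adjusted p = 0.373) in NT and 0.60 (adjusted p = 0.0515) in TAM, neither past the threshold. LINC00520 (Entrez 645687) has 4 exons at chr14:56247850-56263449 on the minus strand, with its nearest protein-coding start, that of KTN1 (kinectin), 216524 bases away. A peak covered its start in the TAM list (chr14:56261269-56263613) and the TAM + TPL list (chr14:56263281-56263502) and in neither NT list.

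LINC01844 was at 0.06 and 0.17 FPKM in NT cells and 0.06 and 0.18 with TPL, 1.66 and 2.84 in TAM cells and 6.20 and 6.13 with TPL, at least 13.6-fold higher in TAM with DMSO and at least 35.1-fold with TPL. LINC02910 was at least 3.40-fold higher with DMSO, at 0.83 and 0.80 FPKM from 0.00 and 0.00, and at least 10.1-fold with TPL, at 1.93 and 1.69 from 0.10 and 0.17. Neither had a listed peak over its start. LINC00678 was higher in TAM with DMSO (3.49 and 4.00 against 0.91 and 0.23 FPKM, adjusted p = 0.0440).

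With TPL, LINC00460 was higher in TAM (11.66 and 8.95 against 2.70 and 2.02 FPKM, log2 difference 2.10, adjusted p = 0.0197), and so was LINC02693 (log2 difference 1.91, adjusted p = 0.0152). LINC01235 was lower in TAM with TPL (3.31 and 4.94 against 8.56 and 11.35 FPKM, log2 difference -1.30, adjusted p = 0.0380), as was LINC00842 (-2.82, adjusted p = 0.0207). The calls of LINC00460, LINC02693, LINC01235 and LINC00842 were not among those kept in every fit without 1 library. LINC00381 was lower in TAM with DMSO by at least 2.06-fold, at 0.03 and 0.00 against 1.41 and 0.77 FPKM.

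Whether TPL acted differently in TAM and NT cells was tested as an interaction. 0 members passed either rule in edgeR's test, where 0.0885% of all tested genes passed an adjusted p of 0.05 upward and 0.0767% downward and 0% passed the strict rule. DESeq2 placed 1 member past 0.05, of 499 genes in all. At an unadjusted p under 0.05 were 7 members upward (2.13%) and 5 downward (1.52%), where 5.03% and 5.59% of all tested genes were. The smallest p upward belonged to LINC00641, at 17.24 and 19.44 FPKM in NT cells and 15.60 and 13.56 with TPL, 15.55 and 13.90 in TAM cells and 22.00 and 22.07 with TPL (interaction 1.04, SE 0.245, adjusted p = 0.221). The smallest downward belonged to LINC00205, described below, with an interaction of -1.38 (SE 0.355, adjusted p = 0.257).

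RNAPII peaks covered few LINC starts. Of the 338 placed members, 48 had a listed peak over the start in NT (14.2%, exact binomial 95% interval 10.7 to 18.4%), 25 in NT + TPL (7.40%, 4.84 to 10.7%), 42 in TAM (12.4%, 9.10 to 16.4%) and 25 in TAM + TPL (7.40%). These intervals cover counting error only. By their names the lists hold peaks at transcription starts, and the annotation behind them was not seen. A LINC start missing from that annotation could lack a listed peak, and whether this lowered the LINC shares was not tested. Among all placed genes of at least 0.5 FPKM the shares were 66.3%, 52.9%, 58.4% and 51.9%, and among other long noncoding RNA genes between 33.5% (NT + TPL) and 44.4% (NT). There was 1 list per condition with no peak height, the lists held 11222, 8653, 11056 and 8464 peaks, and the peak names of the TAM list carry another cutoff than those of the other lists, so that no test was made between conditions.

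A peak over the start in NT was also listed in NT + TPL for 24 of 48 members (exact interval 35.2 to 64.8%), and one in TAM was listed in TAM + TPL for 24 of 42 (57.1%, 41.0 to 72.3%), where 76.9% and 81.0% of such peaks of all genes were. 286 members had a peak in no list and 20 in all 4. Those with a peak in all 4 lists and the highest levels were LINC00641, LINC00467, LINC01012, LINC03009, LINC02987, LINC00663, LINC01128 and LINC01569. LINC00641 is described with the interaction. LINC01569 rose in both states (log2 fold changes 1.34 and 1.02, adjusted p = 0.00551 and 0.0157), and so did LINC00663 (0.94 and 1.26) and LINC03009 (0.82 and 0.94), while LINC00467 rose in NT (1.56, adjusted p = 0.00867) and LINC01012 in TAM (0.93, adjusted p = 0.0348). LINC01128 (0.06 and 0.31) and LINC02987 (-0.20 and 0.66) passed in neither state. 13 members had a peak in the NT and TAM lists alone, the highest of these by mean level being LINC01356, LINC01123, LINC01521 and LINC01089, a set picked after its values were seen.

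**Figure D4:**
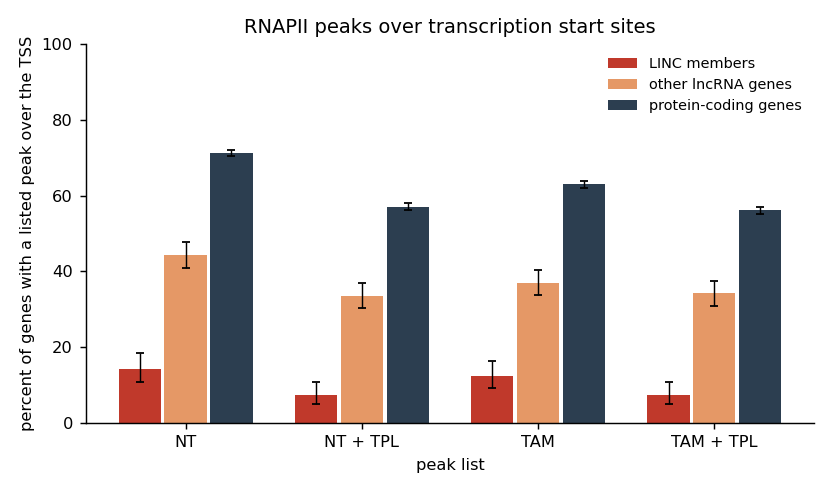
Percentage of genes with a listed RNAPII peak over the transcription start site (vertical axis) in each of the 4 peak lists for LINC members, other long noncoding RNA genes and protein-coding genes of at least 0.5 FPKM; error bars are exact binomial 95% intervals. LINC members stand at 14.2, 7.40, 12.4 and 7.40%, lowest of the 3 groups in every list.

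RNA level was only loosely tied to a listed peak. The 48 members with a peak in NT had a median of 2.13 FPKM in NT and the 290 without had 1.41, whereas protein-coding genes had 10.96 and 1.88. Of the 20 placed members with the highest mean FPKM, 3 had a peak over the start in any list. Members with an NT peak had median log2 fold changes of 0.69 in NT and 0.76 in TAM with TPL (42 tested), and those without had 0.83 and 0.98 (258 tested).

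Each cell state had 1 member with a peak in the TPL list and not in the DMSO list. For LINC00205 the start was covered in NT + TPL (chr21:46707500-46708153), TAM (chr21:46707669-46708129) and TAM + TPL (chr21:46707668-46708079) but not in NT. POFUT2 starts head to head with it, 142 bases away and within each of these peaks, so they cannot be assigned to either gene. LINC00205 RNA was at 0.46 and 0.53 FPKM in NT cells and 2.47 and 2.57 with TPL, 1.03 and 0.76 in TAM cells and 1.80 and 1.83 with TPL. It rose with TPL by 2.35 on the log2 scale in NT (SE 0.262, adjusted p = 0.00105) and by 0.97 in TAM (SE 0.249, adjusted p = 0.0251), a call lost without TAM replicate 2 (adjusted p = 0.123) and without either TAM + TPL replicate (0.0937 and 0.0893). For LINC00674 the peak was listed in NT (chr17:66097469-66098103) and in TAM + TPL (chr17:66097676-66098049, which ends on the start itself). Another noncoding gene starts head to head with it, 412 bases away, within the NT peak but not the TAM + TPL peak. LINC00674 RNA ran from 7.10 to 10.54 FPKM over the 8 libraries, and 82% of its words lay in a gene that overlaps its exons.

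The start regions of LINC genes were poor in CpG. Over 300 bases the median member held 5 CpG at 49.7% GC, and the median gene of at least 0.5 FPKM held 26 at 65.0%. GGGCGG was found in 22.2% of members and 68.4% of all genes, TATAAA in 17.5% and 7.04%, TGANTCA in 10.9% and 4.76%, CCAAT in 38.8% and 36.1%, and CACGTG in 4.73% and 9.58%. Members with a peak in NT held a median of 24.5 CpG at 66.5% GC, with GGGCGG in 68.8% and TATAAA in 6.25%, against 4 CpG at 48% GC, 14.5% and 19.3% in those without. The sequences above held 6 GGGCGG and 33 CpG for LINC00205, 3 and 39 for LINC00674, and 0 and 24 for LINC01004. These are matches of letters, not binding sites.

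The members lay mostly far from protein-coding starts. The median distance was 18562.5 bases to the nearest start of another gene and 70329.0 bases to the nearest protein-coding start, and 126 members were over 100000 bases from one. 40 members overlapped a protein-coding gene, 26 shared exon sequence with a gene on the same strand and 84 with a gene on the other strand, and since strand-specific counting is not stated, reads of such pairs cannot be told apart. For 202 tested members whose nearest protein-coding gene was tested, that gene had a median log2 fold change of -0.32 in NT and -0.37 in TAM with TPL, and the member's and the neighbour's fold changes had a Spearman rho of 0.05 and 0.07 across genes.

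30 members started head to head with another gene within 1000 bases, 8 of them with a protein-coding gene. These 8 are given as a complete set. LINC01521 at chr22:31742763-31744705, 1 exon, lies 431 bases from the start of PATZ1, a zinc finger transcription factor. LINC01521 was at 4.05 and 3.43 FPKM in NT cells and 6.31 and 7.45 with TPL, 3.69 and 3.94 in TAM cells and 6.74 and 4.53 with TPL. PATZ1 was at 8.04 and 8.13 FPKM in NT cells and 0.92 and 0.56 with TPL, 11.82 and 10.59 in TAM cells and 1.62 and 1.67 with TPL. TPL libraries were thus higher for the LINC gene and lower for its neighbour in both states: LINC01521 had log2 fold changes of 0.88 (SE 0.243, adjusted p = 0.0293) in NT and 0.51 (SE 0.243, adjusted p = 0.146) in TAM, and PATZ1 had -3.47 (SE 0.247, adjusted p = 0.000289) and -2.82 (SE 0.230, adjusted p = 0.000464). The peak over the LINC01521 start was in the NT and TAM lists (chr22:31741920-31743920 and chr22:31742659-31743797) and in neither TPL list. The NT peak also covered the PATZ1 start and the TAM peak did not, so the NT peak cannot be assigned to either gene.

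LINC01089, described elsewhere as a target of epidermal growth factor in mammary cells, lies 525 bases from SETD1B, a histone H3 lysine 4 methyltransferase gene. It was at 1.38 and 1.14 FPKM in NT cells and 7.05 and 6.28 with TPL, 0.79 and 0.95 in TAM cells and 9.79 and 7.04 with TPL. It rose with TPL (log2 fold changes 2.38 and 3.21, adjusted p = 0.00242 and 0.00109), whereas SETD1B had -1.23 and -0.85 (adjusted p = 0.0521 and 0.147). LINC01089 shares exons with RHOF and 63% of its words with other genes, so its level is uncertain. POFUT2, a protein O-fucosyltransferase gene 142 bases from LINC00205, rose in NT by 0.81 (adjusted p = 0.0475) and had 0.25 in TAM (adjusted p = 0.492).

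LINC00941 had log2 fold changes of 0.41 in NT and 0.33 in TAM, not past the threshold, and its neighbour CAPRIN2, an RNA-binding protein gene, fell in NT (-1.58, adjusted p = 0.00447) and had -0.18 in TAM. For LINC00941, 92% of the words lay in a gene that shares its exons on the same strand, so its level is uncertain. LINC01134 rose in TAM (1.42, adjusted p = 0.0147) and C1orf174 had -0.26. LINC01547 had -1.20 and 0.18, and SLX9 had -2.45 and -1.97, none past the threshold. LINC02202 had 0.91 and 0.83 beside EBF1 (a B cell transcription factor), which was not tested at a mean of 0.109 FPKM, and LINC02245 rose in both states (1.25 and 1.12, adjusted p = 0.0273 and 0.0436) beside CEP68, for which no value was matched.

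**Figure D5:**
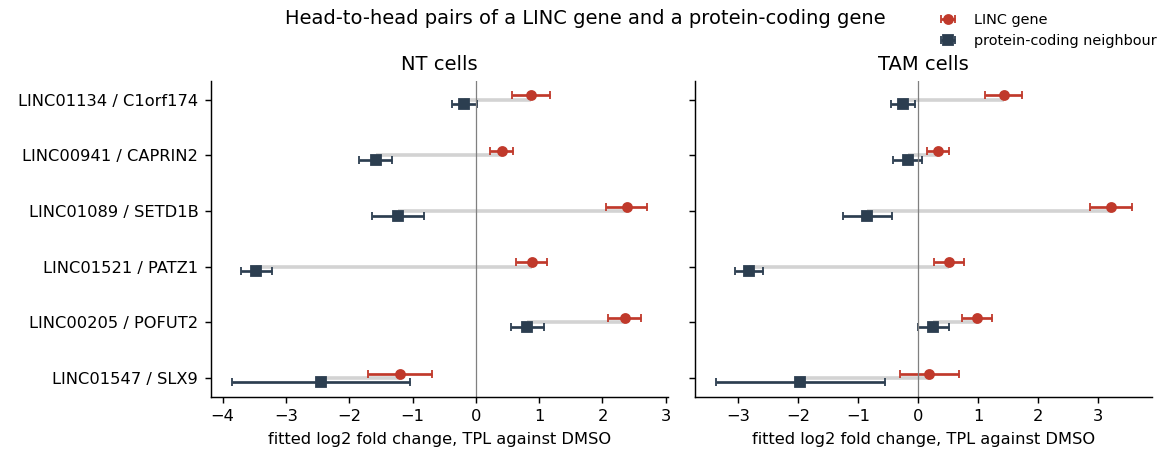
Fitted log2 fold change with TPL (horizontal axis, with standard errors as bars) of the LINC gene (red circle) and the protein-coding gene (dark square) for the 6 head-to-head pairs in which both were tested, in NT and TAM cells. The red circle lies to the right of the dark square in every pair, most widely for LINC01521 and PATZ1 in NT, at 0.88 and -3.47.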

How the data were processed

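RNA-Seq and RNAPII ChIP-Seq of MCF10A-ErSrc cells were used. For RNA-Seq the authors mapped poly-A reads with Bowtie2 and deposited RSEM expected counts and FPKM per gene and library. For ChIP-Seq they deposited 1 peak list per condition (hg19, MACS), named as peaks at transcription starts, with peak names that mention replicate 1 and without scores. Labels also name BWA, HOMER and MACS 1.4.2.

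Expected counts were rounded, filtered by group (filterByExpr), scaled by TMM and fitted over 8 libraries and 4 groups with edgeR 4.0.16 in R 4.3.3 (quasi-likelihood test, Benjamini-Hochberg over all genes tested). Fold changes come from counts and levels from deposited FPKM. The methods describe 2 biological replicates per group. Genes were placed with GENCODE 44 on GRCh37, promoters and 24-base words were read from it, and 32 members found no place. Members named were the 10 highest, strict calls, largest changes, genes at the FPKM minimum and peak patterns, and other genes are marked in the text. Members, lists and tests were chosen with earlier results of these data known. The fit was tested on simulated data. Alternatives were DESeq2 1.42.0, other filters and scalings, a replicate block, limma 3.58.1 on log2(FPKM + 1 or 0.1), left-out libraries, other FPKM minimums and other peak distances.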

Additional observations from a re-analysis of the deposited data

Results flagged for a closer look

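Members whose effect had opposite signs in both libraries of each state, or under both treatments, are listed with their 2 log2 values. No interaction passed edgeR's test, so that none of these differences is shown. LINC00641 had -0.49 with TPL in NT and 0.55 in TAM, and -0.31 for TAM against NT with DMSO and 0.73 with TPL (interaction adjusted p = 0.221). LINC00205 had 0.88 for TAM against NT with DMSO and -0.50 with TPL (adjusted p = 0.257). LINC00673, a noncoding RNA known to affect the turnover of the phosphatase PTPN11, had 0.81 with TPL in NT and -0.27 in TAM (adjusted p = 0.316). It was at 5.67 and 5.32 FPKM in NT cells and 8.05 and 11.19 with TPL, 9.97 and 11.14 in TAM cells and 9.54 and 8.61 with TPL. LINC01123 had -0.54 for TAM against NT with DMSO and 0.59 with TPL (adjusted p = 0.326), LINC03025 had 1.04 and -0.67 (adjusted p = 0.397), and LINC00707 had -0.48 and 1.08 (adjusted p = 0.514). LINC00520 had -0.57 with TPL in NT and 0.60 in TAM (adjusted p = 0.392).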

How the results depend on the processing

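The strict counts moved with the method and the direction of the medians did not. Under the strict rule, members that rose in NT numbered 25 by DESeq2, 7 where each library had to reach 10 counts, 0 with a replicate block or with only the groups compared, 4 with limma at either pseudocount and 1 among members with little shared sequence. In TAM they numbered 24, 8, 0, 0, 4 (pseudocount 0.1) and 1. Of all genes, 206 rose in NT and 143 in TAM in the reported fit, 920 and 855 by DESeq2, 437 and 378 with at least 10 counts and 0 with the block or with only the groups compared. With limma, 301 and 237 of all genes rose at a pseudocount of 1 and 252 and 175 at 0.1. Members that fell in NT numbered 3 with DESeq2, 1 with no filter and 3 with at least 10 counts, and in TAM 1 with DESeq2. In the same order 1586, 650, 998 and 1397 of all genes fell. Between states, calls with DMSO numbered 2 with DESeq2 and 0 with at least 10 counts or only the groups compared, and with TPL 5, 0 and 0, and 2 with limma at a pseudocount of 1. Of all genes, these calls numbered 732, 323 and 0 with DMSO and 666, 272, 0 and 164 with TPL. At an adjusted p of 0.05 the counts were 80 up and 5 down in NT, 87 and 4 in TAM, and in total 5 with DMSO and 7 with TPL between states. Without 1 library, strict counts ran from 0 to 2 up and 0 to 1 down in NT, 0 to 1 up and 0 down in TAM, 0 to 1 for either state contrast and 0 for the interaction, and the medians from 0.49 to 1.06 in NT and 0.83 to 1.07 in TAM. The median in TAM was 1.19 with upper-quartile scaling, 0.65 with limma at a pseudocount of 1 and 1.07 with little shared sequence. That scaling moved the medians of all genes to 0.31 and 0.29. Members chosen on DMSO libraries alone (312, an alternative added after the data were seen) had medians of 0.76 and 0.87. With no minimum there were 805 members, and 163 with little shared sequence. Peaks in NT + TPL numbered 41 within 1000 bases of the start and 16 at 500 bases or longer. Peaks in TAM numbered 67 within 1000 bases. Peaks in TAM + TPL numbered 39 over any annotated start, 38 within 500 bases, 39 within 1000 and 11 at 500 bases or longer. Same-numbered replicates correlated at -0.113 to 0.047 over all tested genes, so no strong pairing by number was seen across them. A value over all genes cannot exclude a pairing that touches only some of them. The block left 58 up and 5 down in NT and 60 and 4 in TAM at 0.05 (of all genes, 2377 up and 3020 down in NT and 1895 and 2780 in TAM, from 2919, 3355, 2431 and 3159 without it). The median distance to a start was 70329.0 bases for protein-coding genes alone. For named members, 3418 values kept direction and side, 220 lost and 119 gained the threshold and 0 reversed. The cause of these shifts was not tested. The median member's 31.5 counts and 2 libraries per group limit what could be detected.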

Other observations

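Split by the share of their sequence found in other genes, the tested members had median log2 fold changes with TPL of 0.87 in NT and 1.04 in TAM under 5% shared, 0.80 and 0.91 at 5 to 20%, and 0.77 and 1.0 at 20% or more, where 15 were tested.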
